A study of Mus musculus with 34 samples.

Results

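The genes described here are 35 genes of the peroxisome, taken as a fixed list of gene symbols and divided into 13 peroxins and 22 peroxisomal enzymes, out of 23509 genes in each deposited table. The list was compared across 3 groups of mice. All 35 symbols had a row in every table and all 35 passed the filter on low counts, which left 15644 genes. Polyadenylated RNA of whole kidney was sequenced from 34 C57BL6 mice on postnatal day (P) 28. The RGLS4326 group (n = 11) held *Pkd2*-KO mice dosed subcutaneously with RGLS4326 at 20 mg per kg on P10, P11, P12 and P19, and the PBS group (n = 11) held *Pkd2*-KO mice dosed with PBS on the same days. The third group was UNT (n = 12), untreated non-transgenic mice of the same strain. Loss of *Pkd2*, the gene of polycystin-2, causes polycystic kidneys, and RGLS4326 is a short modified oligonucleotide made to block miR-17, a microRNA. The genotype is spelled Pdk2KO in the labels, and the study describes the model as Pkhd1/cre;*Pkd2*F/F, in which Cre driven by the *Pkhd1* promoter, active mainly in collecting ducts, deletes a floxed *Pkd2*. Neither the sex nor the litter of the mice is given, so p-values measure the spread between these samples.

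Peroxisomes are membrane-bound organelles that shorten very long and branched fatty acids, break down hydrogen peroxide and begin the synthesis of ether lipids. Peroxins, named Pex, build the organelle, import its enzymes from the cytosol and divide it. In the kidney, peroxisomes are most abundant in the proximal tubule, and many of their enzyme genes are targets of the fatty acid receptor PPAR alpha.

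Libraries held between 17603122 and 54981992 reads assigned to genes, and the member counts ranged from 158 (*Pex10*, lowest library) to 51431 (*Cat*, highest library). Levels are CPM, the read count of a gene relative to the library's total in genes, with TMM factors applied to the totals. Adjusted p denotes the two-sided quasi-likelihood test of edgeR with Benjamini-Hochberg adjustment over all 15644 genes, and a gene was called at an adjusted p under 0.05. The SE of a log2 fold change was derived as its absolute value divided by the square root of the F statistic of that test. As a check of the labels, *Pkd2* was 274.0 ± 34.4 CPM (SD, n = 12) in UNT, 160.1 ± 32.2 (n = 11) in PBS and 209.8 ± 23.8 (n = 11) in RGLS4326. Of the reads counted in or outside genes, those outside made up 12.9% to 14.9% in UNT, 6.08% to 11.0% in PBS and 5.82% to 14.6% in RGLS4326, and their part in the results was not tested beyond an alternative fit with this share as a covariate. The share did not overlap between UNT and PBS, so in PBS vs UNT that fit extrapolates and cannot part the share from the group. Library numbers in the names of the tables restart, which places the libraries in 3 sets, each with 3 or 4 mice of every group. Whether the sets were separate runs is not stated.

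Many peroxisomal enzymes carry an import signal in their last amino acids that is read by Pex5. The last coding bases of the following members are shown because some of them end in the codons searched for and others do not, with the last 3 codons before the stop in capitals (GRCm38, GENCODE M21, coding strand).
Hao2: ccagacctgattcagttcTCCAGATTAtaa
Ehhadh: ttggcaggaccccatagcAGCAAACTGtga
Pipox: ttctctacgctgagcaaaGCCCACCTTtga
Crot: atacagctgatgaacaccGCTCATCTTtag
Cat: atggctgcgaagggaaaaGCTAACCTGtaa
Agps: aacatctttggaaacagaAACCTTTTAtaa
Pex5: ctcctagctatgtttggcCTGCCCCAGtga
The pattern searched was a codon for serine, alanine or cysteine, then 1 for lysine, arginine or histidine, then 1 for leucine or methionine, read only on the coding strand and in frame. It was present in 12 of 22 enzymes, among them *Hao2*, *Ehhadh*, *Pipox* and *Crot*, in 0 of 13 peroxins and in 0.535% of the 14206 tested genes with an annotated coding end. *Cat*, *Agps* and *Pex5* above do not hold it, which says only that these codons are not at these ends, and catalase is known to be imported by Pex5 through a variant of the signal. Enzymes with and without the pattern had median log2 fold changes of -1.43 and -1.70 in PBS vs UNT.

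Per length of exon, the enzymes were the more abundant class in normal kidney. This length counts every base in any annotated exon of a gene, whether or not that exon is used in kidney. It was 8925 bases for *Ddo* and 3397 for *Pex11g*, so the order depends in part on the annotation. In UNT mice, *Cat* had the highest mean level, 396.0 CPM per kb, followed by *Hao2* with 326.1 and *Phyh* with 279.6, and the first 12 places in this order were all held by enzymes. The most abundant peroxin per length was *Pex19*, in place 13, with 44.6 CPM per kb. *Pex11g* stood last, in place 35, with 4.49 CPM per kb, next to the enzyme *Ddo* with 5.31. Neighbours in this order were not tested against each other.

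The first comparison, PBS vs UNT, asks how the polycystic kidney differs from the normal one. Of 13 peroxins, 11 fell, *Pex26* rose and *Pex14* was not called, and of 22 enzymes, 21 fell and *Xdh* rose. Among all genes tested, 82.1% were called, 39.0% lower and 43.1% higher, so that the 32 of 35 members called lower compare with 39.0%. The median log2 fold change was -0.69 for peroxins and -1.54 for enzymes, beside 0.04 for all genes tested. In 9 of 13 peroxins and 18 of 22 enzymes every PBS mouse was under every UNT mouse, a separation found in 19.8% of all genes, with the opposite separation in 22.7%. The plot of fold changes by class shows these differences gene by gene.

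**Figure D1:**
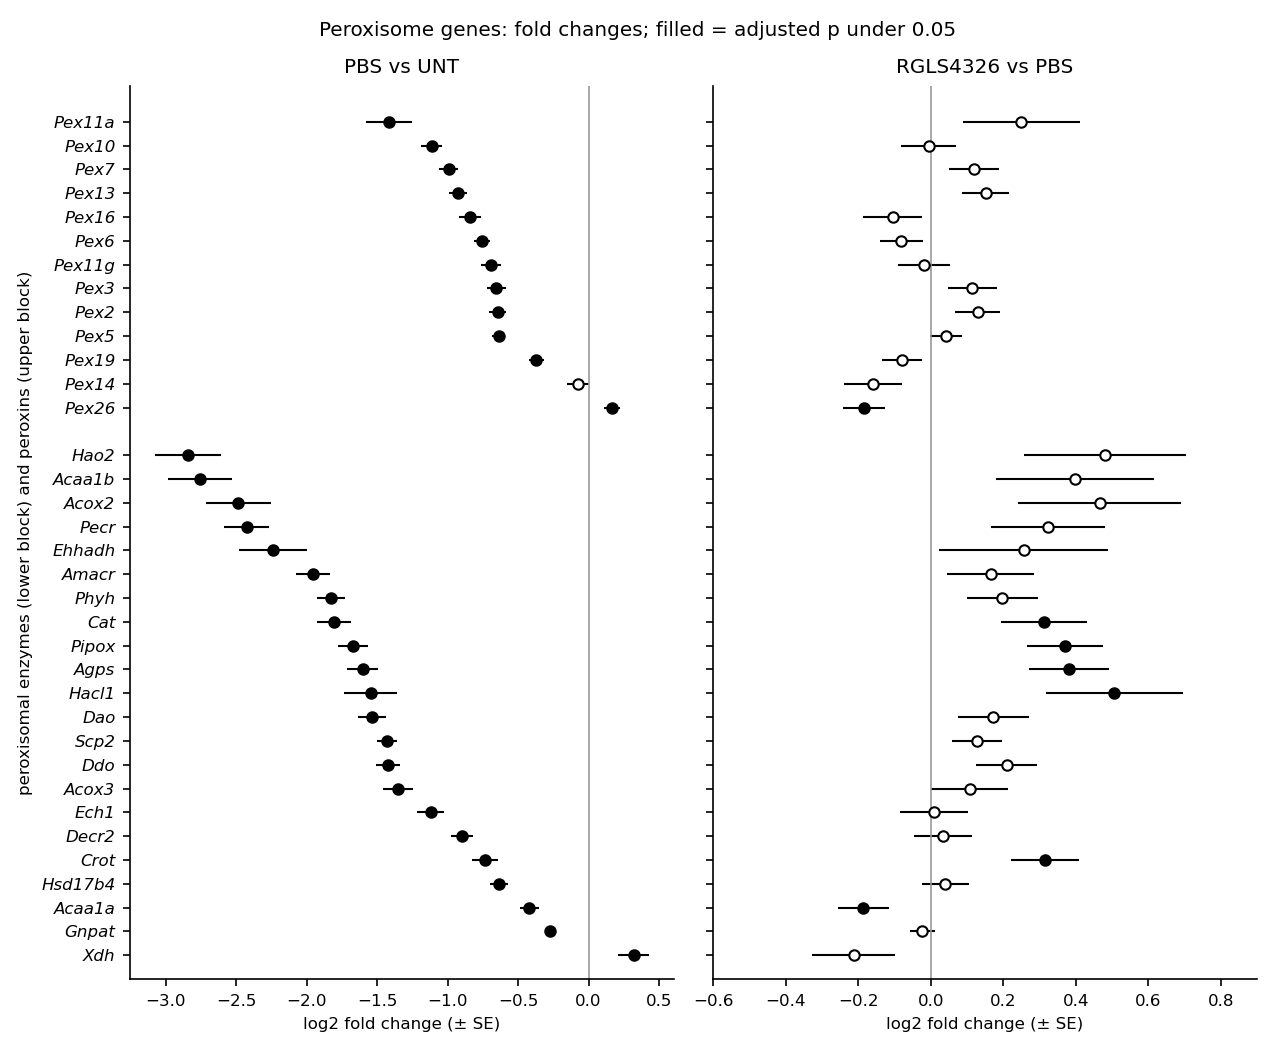
Log2 fold change (x axis, with standard error bars) of each of the 13 peroxins (upper block) and 22 enzymes (lower block), for PBS vs UNT on the left and RGLS4326 vs PBS on the right, where filled points had an adjusted p under 0.05. In PBS vs UNT all points but *Pex26* and *Xdh* lie left of 0, with enzymes reaching -2.84, and in RGLS4326 vs PBS all points lie between -0.21 and 0.51.

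Among the import peroxins, *Pex5*, the receptor for most enzymes, had CPM values from 101.8 to 118.5 (median 110.4) in UNT, from 66.3 to 80.5 (median 69.4) in PBS and from 63.3 to 80.7 (median 75.03) in RGLS4326. Both *Pkd2*-KO groups lay below all UNT mice. The log2 fold change of *Pex5* in PBS vs UNT was -0.64 ± 0.04 (SE, adjusted p = 1.1e-15), and that of *Pex7*, the receptor for a second kind of import signal, was -0.99 ± 0.07 (adjusted p = 1.2e-15). In the docking complex, *Pex13* fell by 0.93 on the log2 scale, whereas its partner *Pex14* had a log2 fold change of -0.08 ± 0.08 (adjusted p = 0.362). With the share of reads outside genes as a covariate *Pex14* had a log2 fold change of -0.55 (adjusted p = 4.39e-07), and it was called lower in sets 1 and 2 alone (-0.22 and -0.20) and stood at 0.11, not called, in set 3. The covariate value is an extrapolation, since the share did not overlap between UNT and PBS.

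*Pex10*, a ubiquitin ligase that recycles the import receptors, had the smallest adjusted p among the peroxins. Its levels were 14.4 to 20.8 CPM (median 19.8) in UNT, 6.93 to 10.7 (median 8.80) in PBS and 7.27 to 9.86 (median 8.54) in RGLS4326. No PBS or RGLS4326 mouse reached the lowest UNT mouse, and the log2 fold change in PBS vs UNT was -1.11 ± 0.08 (adjusted p = 6.27e-16). *Pex2*, of the same ligase ring, fell by 0.65 on the log2 scale, and *Pex6*, an ATPase that pulls the receptors out of the membrane, fell by 0.76.

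*Pex26*, the membrane anchor of *Pex6*, went the other way. It ranged from 29.5 to 36.9 CPM (median 34.2) in UNT, from 33.8 to 42.7 (median 37.8) in PBS and from 26.2 to 39.8 (median 33.6) in RGLS4326. The 3 groups overlapped. The log2 fold change was 0.16 ± 0.06 in PBS vs UNT (adjusted p = 0.00845) and -0.19 ± 0.06 in RGLS4326 vs PBS (adjusted p = 0.0164), both measured against the same PBS mice. In RGLS4326 10 of 11 mice were below the PBS mean. The rise in PBS vs UNT was not called within any set, without the count filter or with the share of reads outside genes as a covariate, where the log2 fold changes were 0.04 to 0.18.

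The 3 peroxins that insert membrane proteins fell by different amounts, *Pex16* by 0.84, *Pex3* by 0.65 and *Pex19* by 0.37 on the log2 scale. *Pex11a*, which elongates and divides peroxisomes and is a known target of PPAR alpha, showed the largest fall of all peroxins. Its levels were 20.0 to 44.2 CPM (median 36.7) in UNT, 8.45 to 22.6 (median 11.3) in PBS and 11.2 to 19.3 (median 15.1) in RGLS4326. In PBS 9 of 11 mice lay below the lowest UNT mouse, and the remaining 2 overlapped with UNT. The log2 fold change was -1.42 ± 0.16 in PBS vs UNT (adjusted p = 5.36e-10), and its relative *Pex11g* fell by 0.70.

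All 8 enzymes of the beta-oxidation core fell in PBS vs UNT. *Acaa1b*, one of 2 mouse thiolases that release acetyl-CoA in the last step, had 297.9 to 581.7 CPM (median 456.0) in UNT, 21.2 to 113.0 (median 78.1) in PBS and 55.8 to 140.7 (median 89.1) in RGLS4326. UNT did not overlap with either other group, and the PBS mean was 14.8% of the UNT mean, a log2 fold change of -2.76 ± 0.23 (adjusted p = 2.24e-13). Its near-identical copy *Acaa1a* had 89.1 to 146.1 CPM (median 123.7) in UNT, 81.0 to 111.2 (median 91.8) in PBS and 67.2 to 100.5 (median 80.8) in RGLS4326. Only 4 of 11 PBS mice were below the lowest UNT mouse, and the log2 fold change of *Acaa1a* was -0.42 ± 0.07 (adjusted p = 1.27e-06).

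The last coding bases of both thiolase genes, shown with the last 3 codons in capitals, were the same.
Acaa1a: gctgcggtctttgaatacCCTGGGAACtga
Acaa1b: gctgcggtctttgaatacCCTGGGAACtga
Over the 1275 coding bases of each, 1231 (96.6%) were identical, and 29.8% of the stretches of 75 bases, the read length, of the *Acaa1b* coding sequence also occurred in *Acaa1a*. Only uniquely mapped reads were counted, so a read pair that lies wholly in shared sequence would be left out, and the levels of both genes are uncertain.

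*Ehhadh*, the bifunctional enzyme of the middle steps and a classical PPAR alpha target, varied widely among normal mice. Its levels ran from 212.9 to 742.7 CPM (median 413.5) in UNT, from 29.5 to 168.9 (median 77.2) in PBS and from 66.0 to 145.7 (median 109.2) in RGLS4326. Every PBS and RGLS4326 mouse was below every UNT mouse, with a log2 fold change in PBS vs UNT of -2.24 ± 0.24 (adjusted p = 1.36e-10). *Scp2*, whose long form is the thiolase of branched chains, had the smallest adjusted p of all 35 members. It ranged from 410.5 to 603.0 CPM (median 482.9) in UNT, from 148.2 to 214.8 (median 184.4) in PBS and from 180.3 to 218.1 (median 192.7) in RGLS4326. UNT stood apart from both other groups, and the log2 fold change was -1.43 ± 0.07 (adjusted p = 6.61e-20).

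The other members of the core followed the same direction. *Acox2* and *Acox3*, oxidases of branched chains, had log2 fold changes of -2.48 and -1.35. That of *Amacr*, a racemase of branched chains, was -1.96, and that of *Hsd17b4*, the bifunctional enzyme of branched and very long chains, was -0.64. In alpha-oxidation, *Phyh*, which hydroxylates phytanoyl-CoA, had 428.5 to 785.5 CPM (median 500.5) in UNT, 110.3 to 191.1 (median 157.5) in PBS and 143.6 to 196.4 (median 170.1) in RGLS4326. All mice of the *Pkd2*-KO groups lay below the lowest UNT mouse, and the log2 fold change in PBS vs UNT was -1.83 ± 0.10 (adjusted p = 1.67e-18). Of the auxiliary enzymes, *Pecr*, a reductase of enoyl-CoA, fell by 2.43, *Ech1* by 1.12, *Decr2* by 0.90 and *Crot*, which exports shortened chains as carnitine esters, by 0.73.

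The oxidases that make hydrogen peroxide included the largest fall and the only rise among the enzymes. *Hao2*, an oxidase of hydroxy acids, had a log2 fold change of -2.84 ± 0.24 (adjusted p = 2.02e-13), and its PBS mean was 13.9% of the UNT mean. *Pipox*, *Dao* and *Ddo*, which oxidise amino acids, had log2 fold changes of -1.67, -1.54 and -1.42. *Xdh*, xanthine dehydrogenase of purine breakdown, which is found mainly in the cytosol, ranged from 39.5 to 63.9 CPM (median 50.2) in UNT, from 42.9 to 90.6 (median 59.5) in PBS and from 36.4 to 72.3 (median 59.1) in RGLS4326. The groups overlapped, and its log2 fold change was 0.32 ± 0.11 (adjusted p = 0.00906) in PBS vs UNT. The rise was not called in set 3 alone (0.14) or with the share of reads outside genes as a covariate (0.13).

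Catalase, *Cat*, which removes hydrogen peroxide, ranged from 863.4 to 1167.1 CPM (median 1041.5) in UNT, from 196.5 to 404.0 (median 301.1) in PBS and from 251.6 to 438.0 (median 393.4) in RGLS4326. All UNT mice were above all others, and the log2 fold change in PBS vs UNT was -1.81 ± 0.12 (adjusted p = 4.57e-16). In ether lipid synthesis, *Agps* fell by 1.60 and *Gnpat*, which acts one step earlier, by 0.27 on the log2 scale. The fall of *Gnpat* was small but separated the groups, with 114.6 to 128.4 CPM in UNT and 93.5 to 104.9 in PBS (adjusted p = 5.05e-09).

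**Figure D2:**
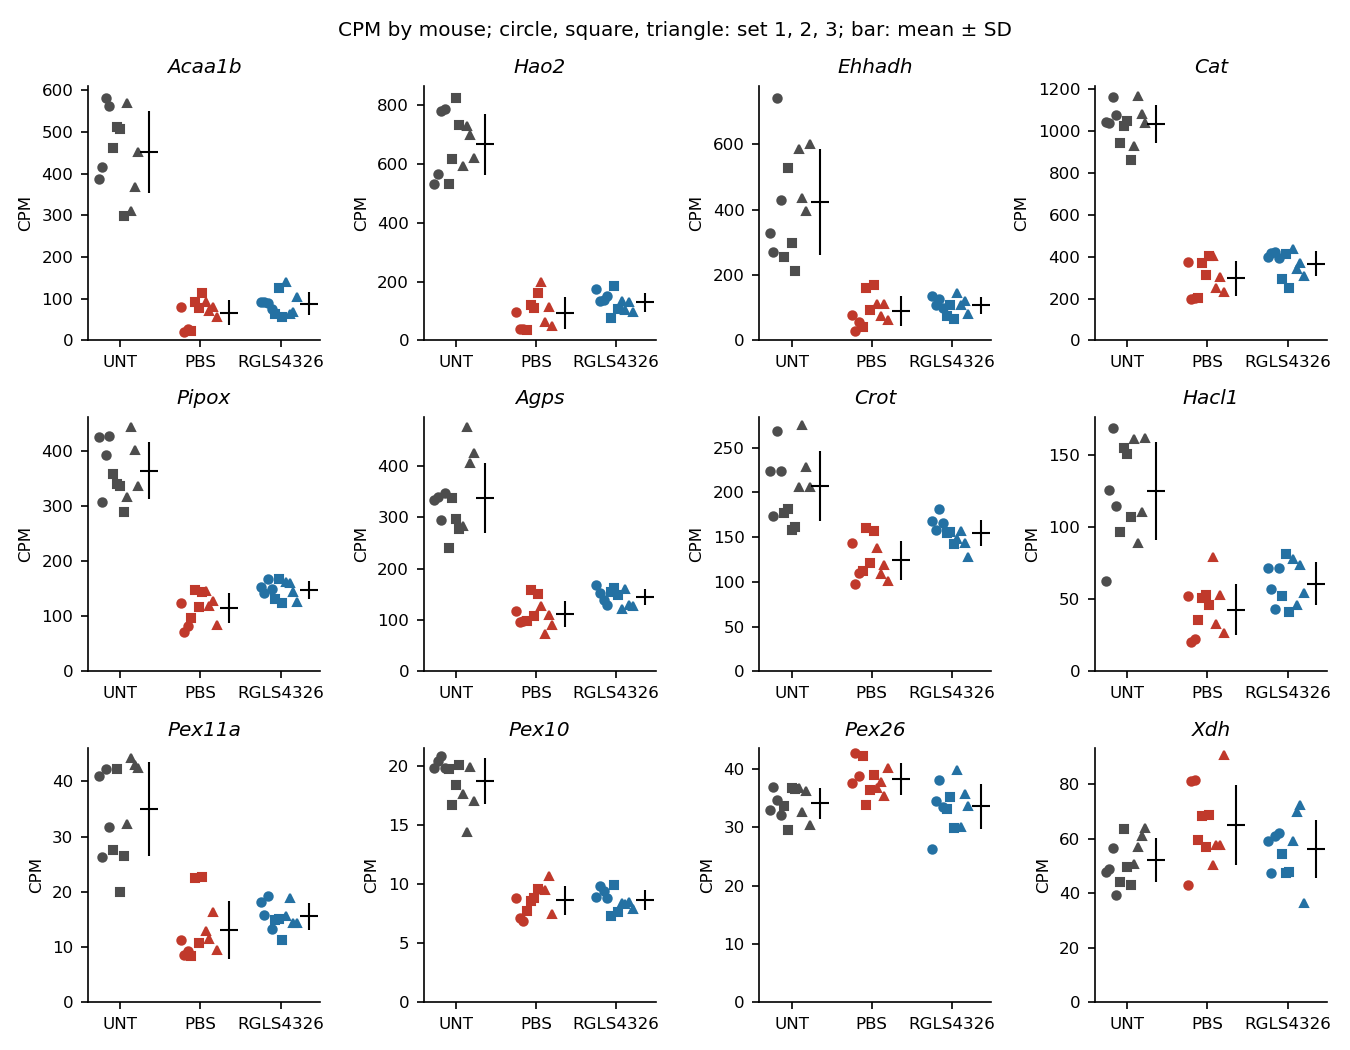
CPM (y axis, from 0) of 12 members in each mouse by group, with marker shape giving the set of libraries and a bar giving mean ± SD. For *Acaa1b*, *Hao2*, *Ehhadh*, *Cat*, *Pipox*, *Agps* and *Pex10* every UNT point is above every PBS point, whereas the groups overlap for *Pex26* and *Xdh*.

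The second comparison, RGLS4326 vs PBS, asks what dosing with RGLS4326 changed in the polycystic kidney. It shares the PBS mice with the first. Kidneys of mice dosed with a control oligonucleotide, which the study's text describes, are not analysed here, and from the 3 groups used here blocking miR-17 and dosing with an oligonucleotide cannot be told apart. Of 22 enzymes, 5 rose (*Pipox*, *Agps*, *Crot*, *Hacl1* and *Cat*) and *Acaa1a* fell, and of 13 peroxins *Pex26* fell and 12 were not called. Of all genes tested, 33.8% were called, 18.5% lower and 15.3% higher, so that 7 of 35 members called is a smaller share than among all genes, and 5 of 22 enzymes called higher is a somewhat larger share than 15.3%. The median log2 fold change was 0.20 for enzymes, with 19 of 22 above 0, and -0.01 for peroxins, with 6 of 13 above 0, beside 0.00 for all genes. No peroxin was called higher by edgeR or by DESeq2, and 2 had a higher level at an unadjusted p under 0.05. For no member was every RGLS4326 mouse above or below every PBS mouse, which held for 0.0447% and 0.0192% of all genes.

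*Pipox*, an oxidase of pipecolic acid and sarcosine, had the smallest adjusted p among the members. Its levels were 290.0 to 443.9 CPM (median 349.8) in UNT, 72.1 to 147.6 (median 118.2) in PBS and 125.0 to 168.7 (median 149.1) in RGLS4326. All 11 RGLS4326 mice were above the PBS mean, although the ranges overlapped, and the log2 fold change was 0.37 ± 0.10 (adjusted p = 0.0099). The RGLS4326 mean was 40.6% of the UNT mean, against 31.4% for PBS.

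*Agps*, the enzyme that forms the ether bond, had 240.1 to 475.5 CPM (median 336.7) in UNT, 72.5 to 158.3 (median 108.3) in PBS and 121.6 to 167.7 (median 149.7) in RGLS4326. All 11 RGLS4326 mice were above the PBS mean, and the log2 fold change was 0.38 ± 0.11 (adjusted p = 0.0113). *Crot* had 158.4 to 275.4 CPM (median 205.9) in UNT, 98.2 to 159.8 (median 119.2) in PBS and 127.8 to 181.4 (median 156.0) in RGLS4326. Again all 11 RGLS4326 mice exceeded the PBS mean, with a log2 fold change of 0.32 ± 0.09 (adjusted p = 0.013), and both the PBS and the treated group overlapped with UNT. The calls of *Pipox*, *Agps*, *Crot* and *Pex26* held when each of the 34 libraries was left out in turn. With the share of reads outside genes as a covariate none of the 7 treatment calls held, in a fit that called 145 of 15644 genes in RGLS4326 vs PBS against 5280 without the covariate. All 7 kept their direction, *Hacl1* at 0.54, *Cat* at 0.36, *Pipox* at 0.39 (adjusted p = 0.0778), *Crot* at 0.33 (adjusted p = 0.0907) and *Agps* at 0.28 (adjusted p = 0.164). The genes that fell moved closer to 0, *Pex26* to -0.14 (adjusted p = 0.204) and *Acaa1a* to -0.05 (adjusted p = 0.629).

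The remaining calls were closer to the threshold. *Hacl1*, the lyase of alpha-oxidation, had 62.5 to 168.7 CPM (median 120.2) in UNT, 20.1 to 79.4 (median 46.0) in PBS and 41.0 to 81.0 (median 56.8) in RGLS4326, and its log2 fold change was 0.51 ± 0.19 (adjusted p = 0.0375). Neighbouring groups overlapped, and 10 of 11 RGLS4326 mice were above the PBS mean. *Cat* rose by 0.31 ± 0.12 on the log2 scale (adjusted p = 0.0395), with 9 of 11 mice above the PBS mean, and *Acaa1a* had a log2 fold change of -0.19 ± 0.07 (adjusted p = 0.041), with 9 of 11 below it. Leaving out 1 library ended the call of *Acaa1a* in 12 of 34 cases (adjusted p up to 0.096), of *Cat* in 10 (up to 0.0792) and of *Hacl1* in 9 (up to 0.0723), and PBS replicates 2, 4, 9 and 11 and RGLS4326 replicate 6 each did so for all 3 genes. *Hacl1* and *Cat* also missed the threshold when only the PBS and RGLS4326 groups were fitted (adjusted p = 0.0536 and 0.0839), and *Cat* with set as a covariate (0.30, adjusted p = 0.0506) or with a replicate block (0.33, adjusted p = 0.0555). The other thiolase, *Acaa1b*, had a log2 fold change of 0.40 ± 0.22 (adjusted p = 0.146), *Ehhadh* of 0.26 ± 0.23 (adjusted p = 0.392) and *Pex11a* of 0.25 ± 0.16 (adjusted p = 0.222), none of them called. The largest uncalled value was that of *Hao2*, 0.48 ± 0.22 (adjusted p = 0.0881).

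The treatment values differed in size between the sets. In set 1, with 3 PBS and 4 RGLS4326 mice, the median log2 fold change of the enzymes was 0.52, in set 2 it was 0.015 and in set 3 it was 0.12, and 19, 11 and 18 of the 22 enzymes were above 0. The medians of the peroxins were 0.14, -0.06 and -0.09. The treated mice of set 2, RGLS4326 replicates 5, 6 and 7, had 13.9%, 13.9% and 14.6% of reads outside genes. The share was 5.82% to 10.3% in treated mice of set 1 and 7.21% to 14.5% in set 3. PBS mice of set 2 had 6.54% to 11.0%. The Y-linked gene *Ddx3y* was at 59.1 to 65.3 CPM in replicates 5, 6 and 7. Most treated mice of sets 1 and 3 lacked it, as did PBS replicate 6 alone in set 2. The part of either in these values was not tested. *Agps* had log2 fold changes of 0.51, 0.29 and 0.44 in sets 1, 2 and 3, *Crot* of 0.53, 0.15 and 0.31 and *Pipox* of 0.73, 0.17 and 0.32, whereas *Cat* had 0.67, -0.01 and 0.29. The test of a treatment by set interaction called 0 of 15233 genes with edgeR, with 796 genes and 3 members at an unadjusted p under 0.05, and the smallest adjusted p among the members was 0.865. *Pex26* had -0.25, -0.20 and -0.10 and was called in no single set, while *Pex14* was called lower in set 2 (-0.35, adjusted p = 0.00637). No enzyme was called higher by edgeR within a single set, where 0.343% and 25.5% of all genes were called in sets 1 and 2, and 0 of 15676 in set 3, with 2826 genes at an unadjusted p under 0.05. In PBS vs UNT the enzyme medians were -1.77, -1.36 and -1.53.

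**Figure D3:**
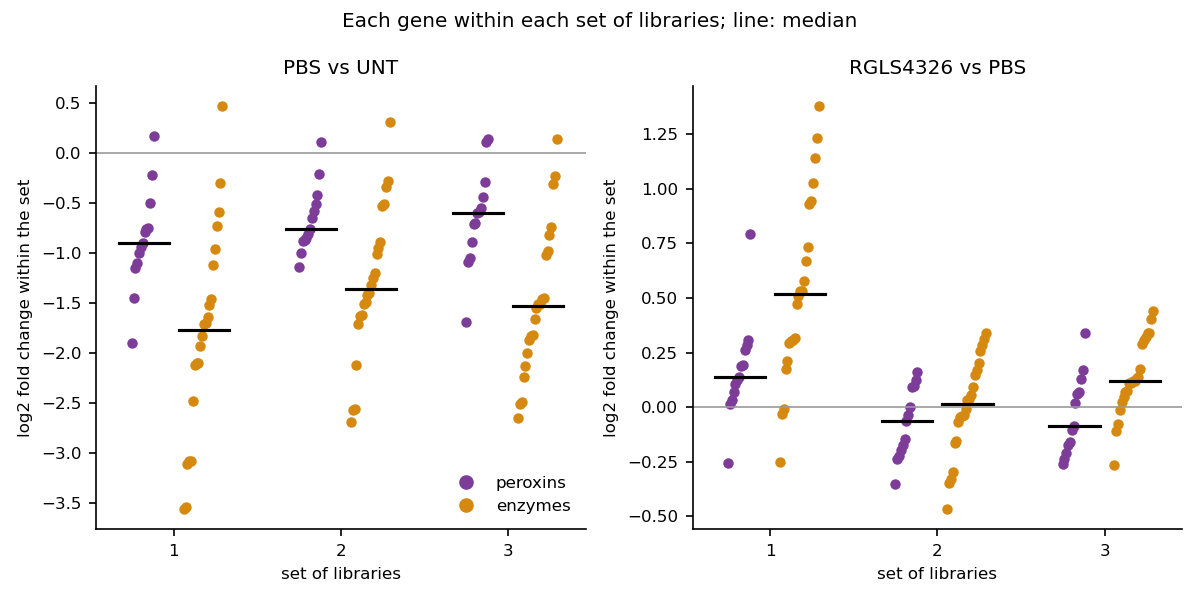
Log2 fold change of each peroxin and each enzyme (points, y axis) fitted within each of the 3 sets of libraries (x axis), for PBS vs UNT on the left and RGLS4326 vs PBS on the right, with a line at the median. The enzyme medians of RGLS4326 vs PBS are 0.52, 0.015 and 0.12 in sets 1, 2 and 3, and the individual enzymes of set 1 reach 1.38.

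The third comparison, RGLS4326 vs UNT, asks how far the treated kidney remained from normal. Of 13 peroxins 12 were lower and *Pex26* was not called, and of 22 enzymes 21 were lower and *Xdh* was not called. Among all genes 77.7% were called, 36.9% lower and 40.8% higher. The median log2 fold change was -0.71 for peroxins and -1.27 for enzymes, and the widest gaps were those of *Hao2* (-2.36 ± 0.23, adjusted p = 1.81e-11) and *Acaa1b* (-2.36 ± 0.23, adjusted p = 1.06e-11). *Crot* was nearest to normal among the enzymes that rose with treatment, at 74.8% of the UNT mean in RGLS4326 and 60.1% in PBS.

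Markers of the proximal tubule moved in the direction of the enzyme median in both comparisons, and in that of the peroxin median in PBS vs UNT. All 10 of 10 marker genes, among them the transporters *Slc5a2* and *Slc34a1*, fell in PBS vs UNT, and 5 of 10 rose in RGLS4326 vs PBS, where their median log2 fold change was 0.56 and that of the peroxins -0.01. Their summed level was 10804 to 14624 CPM in UNT, 808 to 3222 in PBS and 2046 to 3509 in RGLS4326, and none was at 0 in any library. The mean log2(CPM + 1) of the 22 enzymes was 7.60 to 8.03 in UNT, 5.80 to 6.71 in PBS and 6.29 to 6.78 in RGLS4326. PBS replicates 2, 3, 4 and 11 had both the 4 lowest marker means (5.40 to 6.18) and the 4 lowest enzyme means (5.80 to 6.10) of all 34 mice, and replicates 2 and 3 were in set 1. The peroxin mean was 5.59 to 5.81 in UNT, 4.89 to 5.13 in PBS and 4.85 to 5.13 in RGLS4326, and its lowest mouse was RGLS4326 replicate 7. Markers of other cells moved too. Both thick ascending limb markers fell in PBS vs UNT and rose in RGLS4326 vs PBS (*Slc12a1*, log2 fold changes of -2.11 and 0.56), as did both podocyte markers (*Nphs1*, -1.72 and 0.37). Of the 2 distal convoluted tubule markers both fell and *Slc12a3* then rose (-2.70 and 0.62), whereas *Trpm6* had a log2 fold change of -0.27 (adjusted p = 0.0903) in RGLS4326 vs PBS. All 4 principal cell markers of the collecting duct rose in PBS vs UNT, and 2 fell in RGLS4326 vs PBS (*Aqp2*, 1.27 and -0.78). The 3 macrophage markers tested rose in PBS vs UNT, with a summed level of 66.2 to 118.4 CPM in UNT, 303.7 to 780.8 in PBS and 275.0 to 531.5 in RGLS4326. In RGLS4326 vs PBS 2 of these 3 fell (*Cd68* by 0.80 and *C1qa* by 0.48 on the log2 scale), both T cell markers fell and all 3 endothelium markers rose. In PBS vs UNT both T cell markers had risen, and of the endothelium markers 2 had fallen and 1 had risen. All 4 fibroblast markers rose in PBS vs UNT (*Col1a1* by 3.32 on the log2 scale), and *Pdgfra* rose again in RGLS4326 vs PBS (0.53). Of the 3 adipocyte markers 2 rose in PBS vs UNT and fell in RGLS4326 vs PBS (*Adipoq*, 0.82 and -0.97, and *Cidec*). Of the 4 intercalated cell markers 3 fell in PBS vs UNT (*Slc4a1*, -2.46), while *Foxi1* rose and then fell (0.31 and -0.63). Both hepatocyte markers and the 1 erythroid marker tested fell in PBS vs UNT and were not called in RGLS4326 vs PBS. In RNA of whole kidney, fewer cells of a type and less RNA per cell cannot be told apart, and the part of these markers in the changes of the peroxisome genes was not tested.

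**Figure D4:**
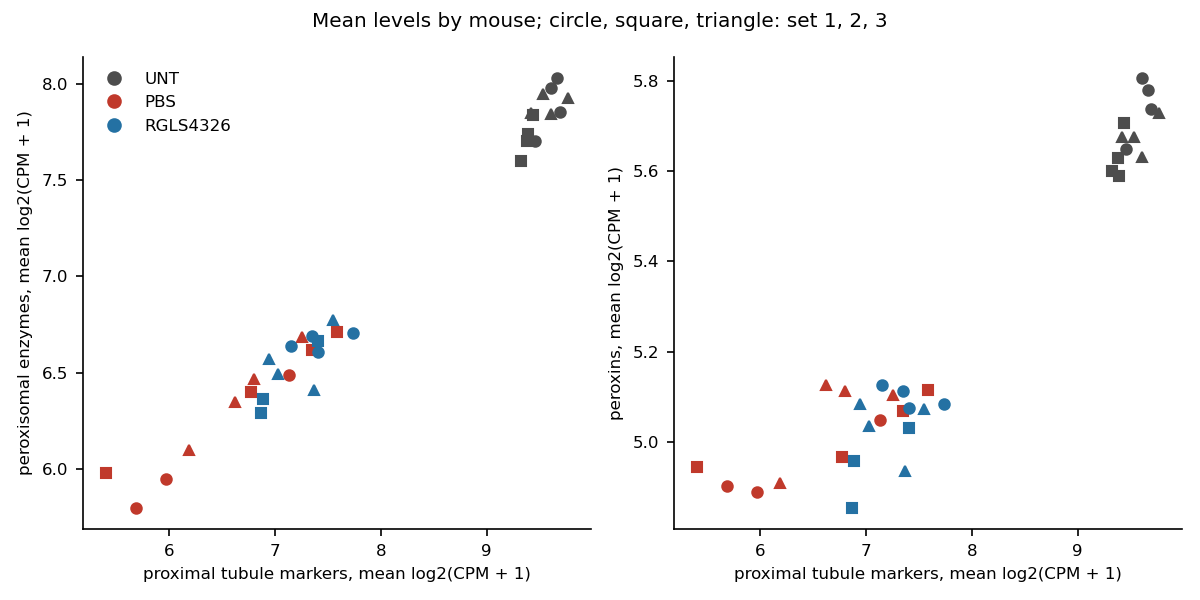
Mean log2(CPM + 1) of the enzymes (left, y axis) and of the peroxins (right, y axis) against that of 10 proximal tubule markers (x axis), 1 point per mouse, coloured by group and shaped by set. UNT mice stand apart at 7.60 or more for enzymes, and the 4 PBS mice with the lowest marker means are those with the lowest enzyme means.

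Other peroxisome genes were counted from a second list. Of its 42 genes 41 passed the filter (*Agxt* did not), and in PBS vs UNT 33 fell and 4 rose, with a median log2 fold change of -0.999. The smallest adjusted p among those that fell belonged to *Crat*, carnitine acetyltransferase (-0.999 ± 0.054, adjusted p = 1.23e-18), and *Idh1*, an NADPH source (-1.25 ± 0.07, adjusted p = 1.59e-17), and those that rose included *Mvk*, mevalonate kinase (0.41 ± 0.09, adjusted p = 8.85e-05). In RGLS4326 vs PBS 11 rose and 3 fell. *Far1*, which makes the fatty alcohols used by *Agps*, rose by 0.51 ± 0.13 (adjusted p = 0.00565), whereas *Fis1*, a fission adaptor, had a log2 fold change of -0.30 ± 0.09 (adjusted p = 0.0122).

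Of 10 nuclear receptors and coactivators that act on these genes, 7 fell and *Rxrb* rose in PBS vs UNT. *Hnf4a*, a transcription factor of the proximal tubule, had a log2 fold change of -1.49 ± 0.13 (adjusted p = 4.04e-13), and *Rxrb*, a partner of the PPARs, had a log2 fold change of 0.20 ± 0.06 (adjusted p = 0.00273). In RGLS4326 vs PBS *Ppargc1a*, a coactivator of mitochondrial and peroxisomal genes, rose by 0.53 ± 0.14 (adjusted p = 0.00639) and *Ppara*, the gene of PPAR alpha, by 0.61 ± 0.16 (adjusted p = 0.00806), while *Rxrb* fell by 0.21 ± 0.06 (adjusted p = 0.0126). *Ppara* itself was 215.6 ± 46.0 CPM (SD, n = 12) in UNT, 69.9 ± 28.4 (n = 11) in PBS and 106.5 ± 19.9 (n = 11) in RGLS4326.

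The 16 genes of mitochondrial beta-oxidation, which takes over the shortened chains, all fell in PBS vs UNT, with a median log2 fold change of -1.10. *Etfa* (-1.61 ± 0.09, adjusted p = 8.59e-19), an electron carrier, and *Hadh* (-1.64 ± 0.09, adjusted p = 3.17e-18), a dehydrogenase, had the smallest adjusted p. In RGLS4326 vs PBS 0 of 16 were called by edgeR and 0 by DESeq2, 4 had an unadjusted p under 0.05, and the median was 0.06, beside 0.20 for the 22 peroxisomal enzymes. Within sets 1, 2 and 3 the mitochondrial medians were 0.32, -0.26 and 0.05, and 3 of 16 genes were called lower by edgeR in set 2. The difference between the lists was not tested.

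RGLS4326 pairs with the seed of miR-17, bases 2 to 8, shown here in capitals for mature mouse miR-17-5p (RefSeq, GRCm38.p6).
mmu-miR-17-5p: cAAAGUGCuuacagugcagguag
Matches to the seed were searched in 3 forms on the transcript strand of the longest annotated 3′UTR. GCACTTT (7mer-m8) is the complement of the whole seed. CACTTTA (7mer-A1) is that of the seed without its last base, followed by an A that does not pair. GCACTTTA (8mer) holds both shorter forms. A match was found in 2 of 13 peroxins, 6 of 22 enzymes and 21.2% of 14181 tested genes with a 3′UTR. The 30 bases around each match, with the match in capitals, are shown for the members below, and *Hsd17b4* also held a 7mer-A1.
Crot: ctatttctcaaGCACTTTAatactttctaa
Hacl1, first: atttaaaaataCACTTTAaattgtatttta
Hacl1, second: agaagctcctgGCACTTTggacggtggagt
Pecr: gggtgggggatCACTTTAatgttaatagct
Acaa1b: ggtgtgtcacaGCACTTTAatttagaaaat
Acaa1a: ggtgtgtcacaGCACTTTActttagaaaac
Pex7: ctatacttttaGCACTTTAgaggctgcagc
Pex26: taggactcttgGCACTTTtgacagccacta
The *Crot* match lies on chromosome 5 from 8966492 to 8966499, minus strand, and those of *Hacl1* on chromosome 14 from 31607903 to 31607909 and from 31607616 to 31607622, minus strand. The matches of the thiolases lie at base 109 of either 3′UTR, on chromosome 9 from 119350142 to 119350149 (*Acaa1a*, plus strand) and from 119148222 to 119148229 (*Acaa1b*, minus strand). That of *Pex26* lies on chromosome 6 from 121195593 to 121195599, plus strand. Of the 8 members with a match, *Crot* and *Hacl1* rose, *Acaa1a* and *Pex26* fell and 4 were not called in RGLS4326 vs PBS, with a median log2 fold change of 0.22. With so few genes, 2 of 8 called in either direction stands near the 15.3% of all genes called higher and the 18.5% called lower. Of the 27 members without a match, 3 rose and none was called lower, with a median of 0.13. A match is a description of the sequence and was not tested as a site. In the study, human *CROT* is among the target genes averaged in its human miR-17 signature, and *Crot* is not in its mouse signature.

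*Hacl1* was the only member called in a test, chosen after the data were seen, of the presence of *Ddx3y*, a gene of the Y chromosome. *Ddx3y* was above 1 CPM, at 20.3 CPM or more, in 17 libraries (6 UNT, 6 PBS and 5 RGLS4326), and at most 0.027 CPM in the other 17. With this as a term beside the 3 groups, edgeR called 35 of 15644 genes (0.224%), and 1 of 35 members, with 6 members at an unadjusted p under 0.05. *Hacl1* ranged from 62.5 to 114.6 CPM in the 6 UNT libraries with *Ddx3y* and from 125.8 to 168.7 in the 6 without, with no overlap. In PBS it ranged from 20.1 to 50.9 with *Ddx3y* and from 26.4 to 79.4 without, and in RGLS4326 from 41.0 to 81.0 and from 54.4 to 78.1, so that the ranges overlapped in both. The log2 fold change of libraries with against without *Ddx3y* was -0.55 (adjusted p = 0.0357), and the smallest adjusted p of any other member was 0.475. With the *Ddx3y* level as a covariate, the RGLS4326 vs PBS value of *Hacl1* was 0.52 (adjusted p = 0.0126).

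**Figure D5:**
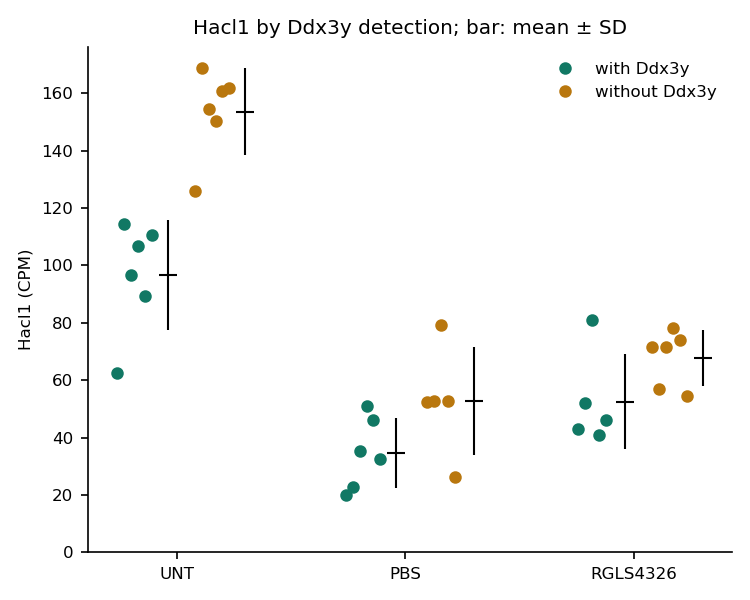
CPM of *Hacl1* (y axis, from 0) in each mouse by group, split by whether *Ddx3y* was above 1 CPM, with bars for mean ± SD. In UNT the libraries with *Ddx3y* (62.5 to 114.6) lie below those without (125.8 to 168.7), and in PBS and RGLS4326 the splits overlap.

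Some members share exonic bases with a neighbour, and since the strand setting of the counting is not given in the sources used here, their levels may hold reads of the other gene. *Pex3*, *Pex11g*, *Pex13*, *Pex14*, *Pex16*, *Pex26*, *Acox3*, *Acaa1a*, *Acaa1b*, *Hacl1*, *Crot*, *Pecr* and *Gnpat* overlap an exon of a gene on the opposite strand, among them *Myd88* for *Acaa1a*, *Dlec1* for *Acaa1b* and *Btd* for *Hacl1*. *Hacl1*, *Crot* and *Gnpat* also overlap an annotated gene on their own strand.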

How the data were processed

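The authors prepared stranded mRNA libraries, trimmed the paired reads with Trim Galore, aligned them by STAR (GRCm38, mm10) and assigned the unique alignments to genes by HTSeq (version 0.6.1 in the submitters' notes). The deposited values are raw read counts per gene, 1 table per mouse, with no normalization, and the gene annotation and strand setting are not given in the sources used here. Lines that name no gene were left out of library sizes (5.82% to 14.9% of reads fell in no gene). After filterByExpr and TMM scaling, 1 quasi-likelihood model of edgeR (version 4.0.16, R 4.3.3) was fitted to all 34 libraries in 3 groups. All 11 libraries that the labels call PBS were used, although the study's text gives a smaller number of PBS kidneys. The test was tried on simulated data first. In these few genes were changed, in PBS only, and every gene had the same spread. The trial therefore differs from the real data and does not vouch for the fit here. DESeq2 (version 1.42.0), RLE size factors, no filter, covariates, single sets and a replicate block were alternatives, and fits without each library and the *Ddx3y* test were added after seeing the data. Sequences and overlaps came from GENCODE M21 (GRCm38), and Python 3.11.15 was used for summaries.

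The members and lists were chosen with earlier results of these data known. Full values are given for the 2 members of smallest adjusted p in each direction per class in PBS vs UNT, each member called in RGLS4326 vs PBS, and *Acaa1b*, *Ehhadh*, *Pex11a* and *Cat*, and for other lists the 2 genes of smallest adjusted p in each direction. Some genes of the other lists that this rule names are not reported here, though they stand in the counts.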

Additional observations from a re-analysis of the deposited data

How the results depend on the processing

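The falls in PBS vs UNT kept their counts, 11 to 12 of 13 peroxins and 20 to 21 of 22 enzymes, under RLE size factors, no count filter, set as a covariate, each set alone, the share of reads outside genes or the *Ddx3y* level as a covariate, the replicate block, only the 2 groups compared and DESeq2. The 1 rising peroxin became 0 without the filter, in sets 1, 2 and 3 alone and with the share of reads outside genes as a covariate, and the 1 rising enzyme became 0 in set 3 alone and with that covariate. In RGLS4326 vs PBS, the 5 enzymes called higher became 3 with only the 2 groups compared and 0 in each set alone and with the share of reads outside genes as a covariate, a fit that called 145 of 15644 genes against 5280. The 1 enzyme called lower became 0 without the filter, in sets 1 and 3 alone and with that covariate, and the 1 peroxin called lower became 2 with set as a covariate and 0 in sets 1 and 3 alone and with the share of reads outside genes, and in set 2 alone the 1 called was *Pex14* and not *Pex26*. With set as a covariate the count of 5 held *Ddo* (0.21, adjusted p = 0.0482) in place of *Cat*. The cause was not tested, except that a set alone holds fewer mice. *Cat* changed sign in set 2 alone (log2 fold change -0.006, adjusted p = 0.99). Leaving out each library gave 3 to 8 enzymes called higher and 0 to 1 lower, and 0 to 1 peroxins higher and 1 to 2 lower, in RGLS4326 vs PBS. The 3 enzymes were left without each of PBS replicates 2, 3, 4, 9 and 11 and RGLS4326 replicates 6 and 8, and the 8 came without PBS replicate 8. *Pex13* was called higher without PBS replicate 5 or 7, RGLS4326 replicate 8 or 10 or UNT replicate 10, *Pex14* was called lower without RGLS4326 replicate 4, and *Acaa1a* was not called without PBS replicate 1, 2, 4, 8, 9 or 11 or RGLS4326 replicate 2, 5, 6, 7, 9 or 11. Leaving out 1 library changed no count in PBS vs UNT or RGLS4326 vs UNT. Over single members and the other alternatives, 373 values of PBS vs UNT kept direction and call, 8 lost the call, 3 gained it and 1 changed sign without a call. In RGLS4326 vs PBS the numbers were 324, 31, 5 and 24, beside the reversal of *Cat*, and in RGLS4326 vs UNT 379 kept both, 3 lost the call and 3 changed sign without one.

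Replicate numbers recur in all groups, but correlations of same-numbered samples' deviations ran from -0.41 to 0.45, with 2, 5 and 3 of 11 pairs above 0.1 in the 3 pairs of groups, and 0, 1 and 1 of 11 samples correlated best with their own number, so the numbers were not taken to pair the mice. The replicate block gave 6 enzymes called higher in RGLS4326 vs PBS, against 5, and ended the call of *Cat* (0.33, adjusted p = 0.0555).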
